A study of Mus musculus with 10 samples.

Results

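The crystallin family was examined in whole mouse retinas that had received either of a pair of adeno-associated virus vectors. The family was taken as 10 genes listed by symbol, namely Cryaa, Cryab, Crybb1, Crybb2, Crybb3, Cryba1, Cryba2, Cryba4, Crygs and Crygn. All 10 were found by symbol among the 57010 genes of the count table, of which 28506 had any count. The mice were 6 to 8 weeks old and received an injection into the vitreous of AAV2-GFP (5 mice) or AAV206-GFP (5 mice), 2 vectors that both carry a green fluorescent protein (GFP) reporter. Retinas were taken 14 days later for bulk RNA sequencing. The labels give no strain, genotype, sex or reporter promoter, and no uninjected retina was analysed here.

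Crystallins are the main soluble proteins of the lens. The α-crystallins Cryaa and Cryab are small heat shock proteins that bind unfolding proteins and keep them from aggregating, while the β- and γ-crystallins are compact structural proteins built from Greek key domains. Cryaa and most β- and γ-crystallins are best known from lens fibre cells. Cryab is also made in many tissues outside the lens, including glia and pigment epithelium of the eye. Transcripts of several β- and γ-crystallins are also known from the retina itself. A lens fragment carried along in dissection and expression within the retina can therefore both add to the counts of a whole retina.

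The promoters of the family are shown first, because MAF transcription factors are textbook activators of crystallin genes. RefSeq sequences of the 250 bases before the start of transcription (build GRCm38.p6) were found for 9 of the 10 members, all but Cryab. The letters TGCTGA, the core of the MAF response element, were searched on both strands. They occurred in 8 of these 9 promoters and in 16.1% of all 32851 promoter windows of the same length. The 10 matches are printed below with their surroundings as 30 bases each, on the strand of the gene from 5′ to 3′, with the match in capitals (TCAGCA is the same core on the other strand).
Cryaa, chr17:31677811-31677840, plus strand: gagcattccagcTGCTGAcggtgcagcctc
Crybb1, chr5:112255724-112255753, plus strand: cccatccaggttTGCTGAcccagctgcctc
Crybb3, chr5:113081634-113081663, minus strand: caggatgctatcTCAGCAtcccgtaatgtg
Cryba1, chr11:77725333-77725362, minus strand: gggaaaagagagTGCTGAcagagccgctgg
Cryba2, chr1:74893275-74893304, minus strand: acgatgtgcgccTCAGCActttccgttgtc
Cryba4, chr5:112252683-112252712, minus strand: catattccctagTGCTGAccctgggcaagc
Cryba4, chr5:112252636-112252665, minus strand: taaaggcagagcTGCTGAcatgtccactct
Cryba4, chr5:112252578-112252607, minus strand: ctatctctggctTGCTGAgtctgtgtttgt
Crygs, chr16:22811593-22811622, minus strand: gggtgccttgatTCAGCAgagcctacaatg
Crygn, chr5:24758059-24758088, minus strand: ccgagccctgacTCAGCAgggcagcaagca

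The match nearest to a start lay in Cryba1, beginning 57 bases before it, and the farthest in Crygn, beginning 228 bases before it. Cryba4 was the member with 3 matches, and 6 of the 10 matches read TGCTGA on the strand of the gene. Crybb2 had none in its window, which is given whole for contrast with the sites above.
Crybb2, chr5:113070118-113070367, minus strand: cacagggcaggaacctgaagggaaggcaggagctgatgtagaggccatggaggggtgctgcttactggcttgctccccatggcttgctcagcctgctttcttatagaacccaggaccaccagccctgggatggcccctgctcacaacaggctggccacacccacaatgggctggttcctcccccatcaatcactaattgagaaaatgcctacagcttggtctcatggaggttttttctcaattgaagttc
The TATA box letters TATAAA, on either strand, were in 3 of the 9 promoters (Crybb1, Cryba1 and Crygs) and in 12.4% of all windows. The heat shock element core GAANNTTC was in 0 of 9 and in 6.69% of all windows. A match is a run of letters, and binding was not measured here. RefSeq and GENCODE place some starts differently, so that 124 of the 250 bases of Cryaa, 167 of Crygs, 160 of Crygn and 5 of Crybb1 overlap GENCODE exons. Of the 30-base stretches printed here, that of Cryaa lies inside the GENCODE gene.

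Library totals lay between 10989843 and 12752604 estimated counts, so 3 counts, taken here as the floor of a level in 1 library, corresponded to 0.235 to 0.273 CPM (counts scaled to the library total), for counting error only. All 13 listed markers that define the retina had enough counts to be tested. Libraries that stood apart for the genes described here included AAV206-GFP replicate 1, high in most crystallins for its group, and AAV206-GFP replicate 4, low in Cryab. AAV2-GFP replicate 5 had the most Cryaa of all, at 17.1 CPM. It also stood apart in Crygs, at 3.08 CPM against 0.565 to 1.18 in its group mates. AAV2-GFP replicate 1 stood apart in microglia and macrophage markers, at a sum of 232 CPM, where its 4 group mates had 26.5 to 51.7.

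Cryaa and Crybb2 fell with AAV206-GFP, to 17.3% and 15.2% of their AAV2-GFP means. They were the 2 members past the threshold among the 4 members (Cryaa, Cryab, Crybb2 and Crybb3) that had enough counts for the test across all genes. That threshold was an adjusted p-value under 0.05 in edgeR's quasi-likelihood test, and 11.2% of the 15539 genes tested passed it, 5.3% as lower and 5.95% as higher with AAV206-GFP. At an unadjusted p under 0.05 there were 3 of the 4 members and 28% of all tested genes. Without AAV2-GFP replicate 5, edgeR called 0 of the 5 members then tested, with 4 at an unadjusted p under 0.05, and robust dispersions called 0 of 4, with 3 at that level, while DESeq2 called 4 and limma-voom 2. A gene with too few counts in both groups cannot enter that test, so the 4 tested members are partly selected for being high with AAV2-GFP. Values of the other 6 are given below without that test. In bulk retina, fewer cells of a type and less RNA per cell cannot be told apart.

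Cryaa (ENSMUSG00000024041, chr17:31677807-31681733, plus strand) encodes αA-crystallin, the partner of αB-crystallin in the lens. Its levels with AAV2-GFP were 9.58, 4.76, 6.57, 6.53 and 17.1 CPM in replicates 1 to 5. With AAV206-GFP they were 6.31, 0.182, 0.0862, 0.807 and 0.339 CPM, from 75, 2, 1, 9 and 4 counts. Only AAV206-GFP replicate 1 reached the range of the AAV2-GFP mice, and 2 of the other libraries were under the floor of 3 counts. The means were 8.91 ± 4.89 and 1.55 ± 2.68 CPM (SD, n = 5), and Cryaa fell by 2.50 on the log2 scale (standard error 0.68, edgeR adjusted p = 0.0288). Without AAV206-GFP replicate 1 the log2 fold change was -4.62 (edgeR adjusted p = 0.000139). The call was lost without AAV2-GFP replicate 5 and without any of AAV206-GFP replicates 2 to 5 (edgeR adjusted p = 0.0590 to 0.0765), with robust dispersions (adjusted p = 0.124) and in DESeq2 (adjusted p = 0.0785).

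Crybb2 (ENSMUSG00000042240, chr5:113058258-113070117, minus strand) encodes βB2-crystallin, the most abundant β-crystallin of the adult lens. Its levels with AAV2-GFP were 3.62, 3.59, 3.87, 2.02 and 7.52 CPM in replicates 1 to 5. With AAV206-GFP they were 2.52, 0, 0.172, 0.0897 and 0.339 CPM, so that replicate 1 again lay among the AAV2-GFP mice and the other 4 below all of them. The means were 4.12 ± 2.04 and 0.625 ± 1.07 CPM (SD, n = 5), and Crybb2 fell by 2.67 on the log2 scale (standard error 0.67, edgeR adjusted p = 0.0183). Without AAV206-GFP replicate 1 it was -4.65 (edgeR adjusted p = 0.000269). The call was lost without AAV2-GFP replicate 5 or AAV206-GFP replicate 3 (edgeR adjusted p = 0.0507 and 0.0519), with robust dispersions (adjusted p = 0.0720) and in DESeq2 (adjusted p = 0.0527).

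**Figure D1:**
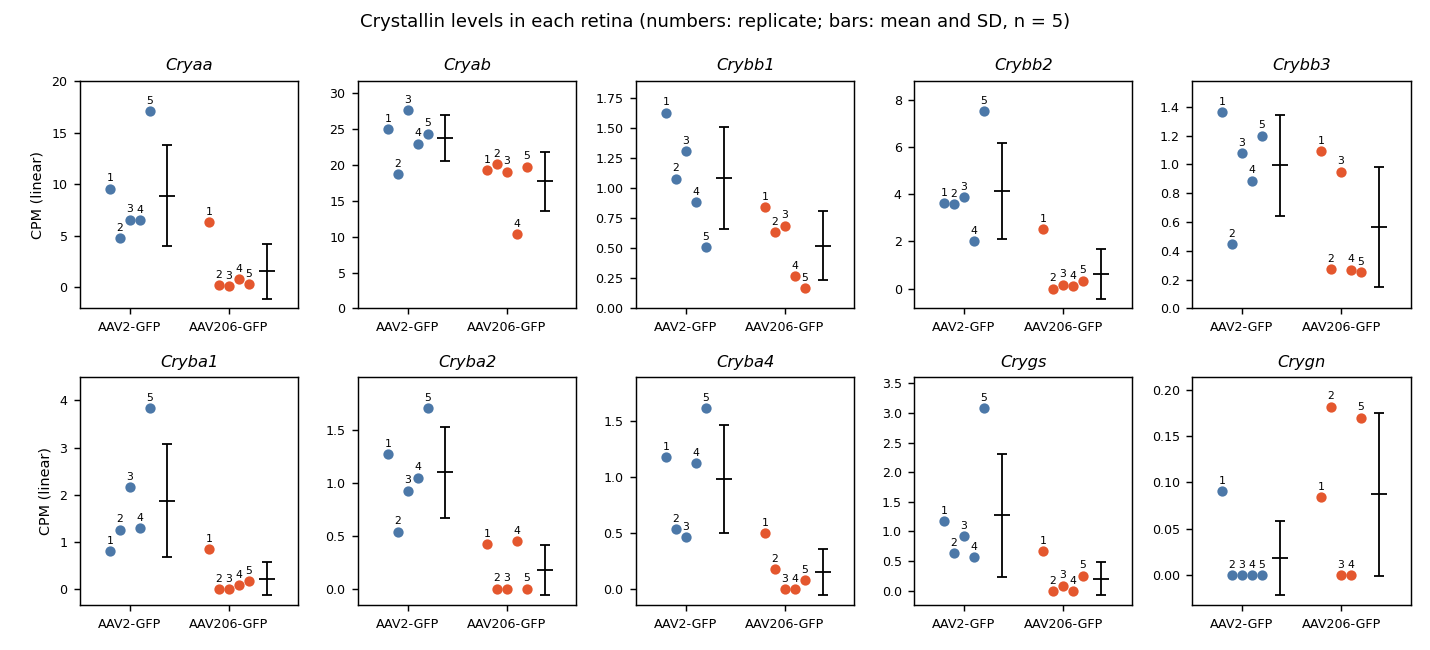
Levels of the 10 crystallin genes in each retina, in CPM on linear axes that differ between panels, with replicate numbers beside the points and the mean with its SD (n = 5) at the right of each group. AAV206-GFP replicates 2 to 5 sit below every AAV2-GFP mouse for Cryaa, Crybb2, Cryba1, Cryba4 and Crygs, whereas for Cryab only AAV206-GFP replicate 4, at 10.4 CPM, is below all of them.

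Of the acidic β-crystallins, Cryba1, Cryba2 and Cryba4 had too few counts for the test across genes, and each was compared with an exact two-sided permutation test of mean log2(CPM + 1), without adjustment, whose smallest possible p is 0.00794. Cryba1 (ENSMUSG00000000724, chr11:77718615-77725283, minus strand) encodes both βA3- and βA1-crystallin from a single messenger RNA. Its levels were 0.814, 1.26, 2.17, 1.29 and 3.84 CPM with AAV2-GFP and 0.841, 0, 0, 0.0897 and 0.170 CPM with AAV206-GFP, in the order of replicates. AAV206-GFP replicate 1 lay just above the lowest AAV2-GFP mouse (exact permutation p = 0.0159).

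Cryba2 (ENSMUSG00000006546, chr1:74889934-74893143, minus strand), which encodes βA2-crystallin, was the member whose groups did not overlap. Its levels were 1.27, 0.539, 0.928, 1.05 and 1.71 CPM with AAV2-GFP and 0.421, 0, 0, 0.449 and 0 CPM with AAV206-GFP. Every AAV206-GFP mouse was thus below every AAV2-GFP mouse (exact permutation p = 0.00794), an ordering that 4.36% of all tested genes showed in this direction and 9.78% in either. Cryba4 (ENSMUSG00000066975, chr5:112246493-112252518, minus strand), which encodes βA4-crystallin, stood at 1.18, 0.539, 0.464, 1.13 and 1.62 CPM with AAV2-GFP. With AAV206-GFP it stood at 0.505, 0.182, 0, 0 and 0.0848 CPM, so again replicate 1 alone reached into the other group (exact permutation p = 0.0159).

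Crygs (ENSMUSG00000033501, chr16:22805203-22811577, minus strand) encodes γS-crystallin, a structural protein of the lens cortex. Its levels were 1.18, 0.629, 0.928, 0.565 and 3.08 CPM with AAV2-GFP and 0.673, 0, 0.0862, 0 and 0.254 CPM with AAV206-GFP. The high value of AAV2-GFP replicate 5, which was also the highest mouse for Cryaa, Crybb2, Cryba1, Cryba2 and Cryba4, raised the mean of its group (exact permutation p = 0.0238). When no filter on low counts was used, edgeR called Cryba1, Cryba2, Cryba4 and Crygs as lower as well. Their log2 differences were then -3.01, -2.59, -2.58 and -2.57 (edgeR adjusted p = 0.00499, 0.0302, 0.0301 and 0.0287). DESeq2 called the same 4 genes (adjusted p = 0.00117 to 0.0150), but not Cryaa or Crybb2.

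Crybb1 and Crybb3, a pair of basic β-crystallin genes on chromosome 5 beside Cryba4 and Crybb2, had AAV206-GFP means of 48.1% and 57.1% of the AAV2-GFP means. Cryaa, Crybb2, Cryba1, Cryba2, Cryba4 and Crygs were at 11.7 to 17.3%, a difference that was not tested. Without AAV206-GFP replicate 1 the 4 of these with more than 3 counts left (Cryaa, Crybb2, Cryba2 and Crygs) were at 3.65 to 10.2%, and Crybb1 and Crybb3 at 40.8% and 43.9%. Crybb1 (ENSMUSG00000029343, chr5:112255815-112269585, plus strand) was at 1.63, 1.08, 1.31, 0.887 and 0.513 CPM with AAV2-GFP and at 0.841, 0.638, 0.690, 0.269 and 0.170 CPM with AAV206-GFP. The groups overlapped, and AAV2-GFP replicate 5, the mouse with the most Cryaa, had the least Crybb1 of its group. The means were 1.08 ± 0.422 and 0.522 ± 0.288 CPM (SD, n = 5; exact permutation p = 0.0476). Leaving out any 1 of the 8 libraries other than AAV2-GFP replicate 5 and AAV206-GFP replicate 1 gave Crybb1 an exact permutation p of 0.0635 to 0.0952.

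Crybb3 (ENSMUSG00000029352, chr5:113075839-113081584, minus strand) was at 1.36, 0.449, 1.08, 0.887 and 1.20 CPM with AAV2-GFP. With AAV206-GFP it was at 1.09, 0.274, 0.949, 0.269 and 0.254 CPM, which places replicates 1 and 3 among the AAV2-GFP mice. Crybb3 did not pass, at a log2 fold change of -0.79 (standard error 0.47, edgeR adjusted p = 0.294). Crygn (ENSMUSG00000038135, chr5:24751003-24758008, minus strand), which encodes γN-crystallin, had 6 counts in all, 1 with AAV2-GFP and 5 with AAV206-GFP. No library had more than 2 counts of it, so it was under the floor in every mouse and no comparison was made.

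Cryab (ENSMUSG00000032060, chr9:50751325-50756636, plus strand), the stress-inducible α-crystallin, was the most abundant member in every mouse but followed another pattern. Its levels were 25, 18.8, 27.7, 23.0 and 24.4 CPM with AAV2-GFP and 19.3, 20.1, 19.1, 10.4 and 19.8 CPM with AAV206-GFP. AAV206-GFP replicates 1, 2, 3 and 5 lay close together and just above the lowest AAV2-GFP mouse, while replicate 4 stood alone below. The means were 23.8 ± 3.27 and 17.7 ± 4.11 CPM (SD, n = 5), and the log2 difference of -0.42 (standard error 0.15) did not pass (edgeR adjusted p = 0.0851). Its AAV206-GFP mean was 74.6% of the AAV2-GFP mean, against 17.3% for Cryaa. In AAV206-GFP replicates 2 to 5, which had the least Cryaa, Cryab was at 10.4 to 20.1 CPM.

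To set the members other than Cryab against it, the 8 that had more than 10 counts (Cryaa, Crybb1, Crybb2, Crybb3, Cryba1, Cryba2, Cryba4 and Crygs) were summed and are called lens-type here, a grouping chosen with their values in view. The name is only a label for these genes, and the tissue their counts came from was not tested. With AAV2-GFP their sum was 20.6, 12.8, 17.3, 14.4 and 36.6 CPM. With AAV206-GFP it was 13.2, 1.28, 1.98, 1.97 and 1.61 CPM. Replicate 1 alone held 66.8% of the 235 lens-type counts of the AAV206-GFP group. The ratio of this sum to Cryab ran from 0.625 to 1.5 with AAV2-GFP, was 0.686 in AAV206-GFP replicate 1 and 0.0636 to 0.190 in the other 4 mice.

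**Figure D2:**
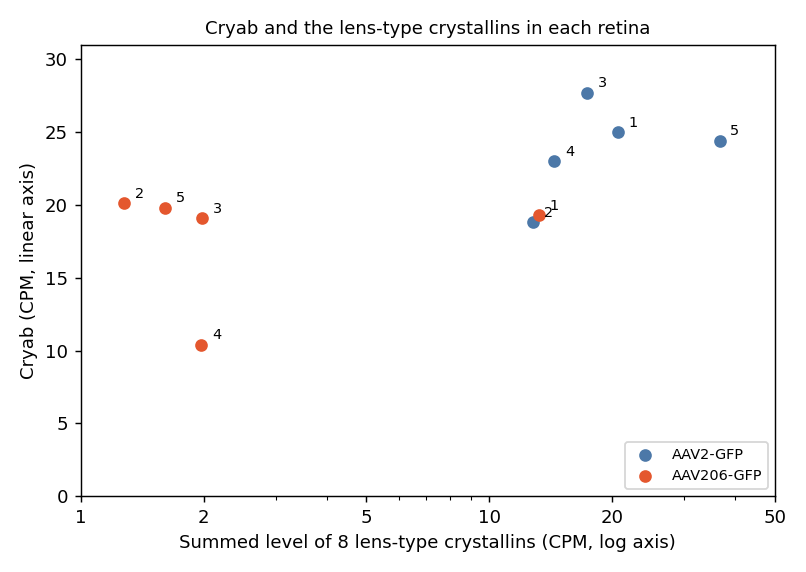
Cryab level (CPM, linear axis from 0) against the summed level of the 8 lens-type crystallins (CPM, log axis), with 1 point for each retina labelled by its replicate number. AAV206-GFP replicates 2, 3 and 5 lie near 20 CPM of Cryab with a sum under 2 CPM, a level of Cryab that AAV206-GFP replicate 1 and AAV2-GFP replicate 2 show at a sum near 13 CPM.

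Because the libraries fell into 2 separate sets by Cryaa, 6 with 53 to 200 counts and 4 with 1 to 9, no correlation over all 10 is given. Over the 6 libraries with more Cryaa (all AAV2-GFP mice and AAV206-GFP replicate 1), the 8 other members with enough counts were compared with it on the log2(CPM + 1) scale. By Pearson's r the closest was Crygs, with r = 0.954 (exact permutation p = 0.0125, adjusted 0.0741) and Spearman's ρ = 0.829 (exact permutation p = 0.0583, adjusted 0.206). Cryab had r = 0.484 (exact permutation p = 0.326, adjusted 0.373) and ρ = 0.771 (exact permutation p = 0.103, adjusted 0.206). Crybb1 had r = -0.424 (exact permutation p = 0.403, adjusted 0.403) and ρ = -0.0286 (exact permutation p = 1.0, adjusted 1.0). By Spearman's ρ it was Cryba2, with ρ = 0.886 (exact permutation p = 0.0333, adjusted 0.206) and r = 0.861 (exact permutation p = 0.0194, adjusted 0.0741). None of the 8 passed adjustment, and without the 2 libraries farthest from the median of Cryaa the r of Crygs was 0.321, so that relation rested on those libraries.

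The makeup of the lens-type counts was then compared between libraries as the share of each gene. Cryaa made up 46.5%, 37.1%, 37.9%, 45.5% and 46.7% of the lens-type counts in AAV2-GFP replicates 1 to 5, from 143 to 428 counts a library. In AAV206-GFP replicate 1 its share was 47.8% (95% Wilson interval 40.1 to 55.5%, from 157 counts). The shares of Crybb2 were 20.2% over the AAV2-GFP group and 19.1% in that mouse (13.7 to 26.0%). For both genes the interval of AAV206-GFP replicate 1 held the share of the AAV2-GFP group.

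The 78 lens-type counts of the remaining 4 AAV206-GFP mice were few. Cryaa held 20.5% of them (95% Wilson interval 13.0 to 30.8%), against 43.7% (40.9 to 46.5%) in the AAV2-GFP group. Crybb1 and Crybb3 each held 25.6% (17.3 to 36.3%), against 5.33% (4.20 to 6.75%) and 4.91% (3.83 to 6.29%). The 4 mice differed among themselves: replicate 4 held 9 of the 16 counts of Cryaa, and its own share of 40.9% lay within the AAV2-GFP range. Without replicate 4 the share of Cryaa was 12.5% (6.19 to 23.6%), from 56 counts. Replicate 3 held 11 of the 20 counts of Crybb3, whose share without it was 16.4% (8.86 to 28.3%). These intervals cover counting error only, and they set mice chosen by their low level against a whole group, so they carry no test. Crybb1 and Crybb3 had 20 counts each in these 4 mice, more than the 16 counts of Cryaa and the 7 of Crybb2.

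**Figure D3:**
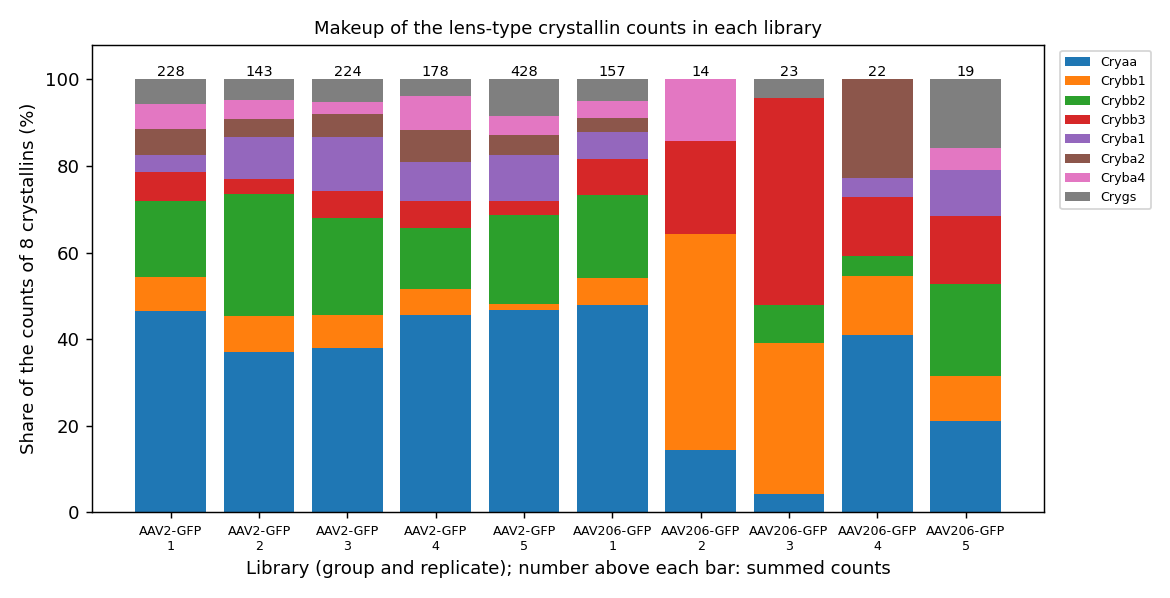
Share of each of the 8 lens-type crystallins (percent, bars stacked from 0) in the counts summed over them, for each library, with the summed counts above the bar. Cryaa fills 37.1 to 47.8% of the bars of the AAV2-GFP mice and AAV206-GFP replicate 1, while Crybb1 and Crybb3 fill more of the 4 bars that rest on 14 to 23 counts.

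Per length, levels were compared as CPM per kilobase of merged exons in GENCODE release M21, with the reservation that the annotation behind the counts is not given in the sources used here. With AAV2-GFP the order was Cryab (16.1), Cryaa (4.29), Crybb2 (2.05), Crygs (1.46), Cryba4 (1.18), Cryba1 (1.18), Crybb1 (1.10), Cryba2 (0.920), Crybb3 (0.426) and Crygn (0.0225 CPM per kilobase). Only the steps from Cryab to Cryaa and from Crybb3 to Crygn separated neighbours in this order without overlap between their mice. With AAV206-GFP Cryab (12 CPM per kilobase) was again above Cryaa (0.744) without overlap, and all other neighbours overlapped.

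The remaining γ-crystallin genes of the lens, Cryga, Crygb, Crygc, Crygd, Cryge and Crygf, were too low for the test across genes. Summed over the 6 genes there were 14, 14, 20, 11 and 27 counts with AAV2-GFP and 9, 0, 0, 1 and 0 with AAV206-GFP. The AAV206-GFP mouse with counts above the floor was again replicate 1, and Cryge and Crygf had 0 counts in every library. The group means of this sum were 1.46 ± 0.533 and 0.169 ± 0.331 CPM (SD, n = 5). Single reads of these near-identical genes could be divided between them, and Crygb and Crygc carried decimals in 1 library each.

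Lens genes that are not crystallins were examined in the same libraries. The membrane channel Mip, the junction proteins Lim2 and Gja3 and the filament proteins Bfsp1 and Bfsp2 together had 19, 8, 11, 9 and 15 counts with AAV2-GFP and 26, 7, 9, 3 and 24 with AAV206-GFP. The mouse with the most lens-type crystallin, AAV2-GFP replicate 5, had 15 of these counts, and AAV206-GFP replicate 5, with 19 lens-type counts, had 24. These 5 genes were picked out of the lens list with their values in view, and their group means were 1.06 ± 0.434 and 1.18 ± 0.871 CPM (SD, n = 5). Lim2, Dnase2b, Birc7 and Foxe3 had 0 counts in every library. Of the 15 listed lens genes outside the crystallins 3 were tested and none passed (edgeR), with log2 fold changes of -0.0023 for Lenep, -0.30 for Hsf4 and 0.53 for Tmod1 and unadjusted p-values of 0.995, 0.125 and 0.00837 (median of the 3, -0.0023, and of all tested genes, -0.0095). Lenep and Tmod1 carried decimals in all 10 libraries and their levels are uncertain. The summed level of the list was 16.5 to 20.1 CPM with AAV2-GFP and 18.3 to 26.8 CPM with AAV206-GFP. Nearly all of it came from Lenep, Hsf4 and Tmod1, since the 12 other genes summed to 0.968 to 1.99 CPM and 0.538 to 2.97 CPM.

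Markers of other tissues of the eye moved between the groups as well, and their part in the crystallin differences was not tested. Over all tested genes, 5.3% passed as lower, 5.95% as higher with AAV206-GFP, and 9.78% had groups without overlap. Of 9 cornea, iris and ciliary body markers found 2 were tested, and Optc, which encodes the vitreous protein opticin, rose from 1.35 ± 0.436 to 5.71 ± 2.31 CPM (SD, n = 5; edgeR log2 fold change 2.08, adjusted p = 0.000555), with no overlap. The other, Mgp, was at 4.59 and 3.09 CPM and did not pass (edgeR log2 fold change -0.57, adjusted p = 0.248). The summed level of that list was 4.52 to 11.5 CPM with AAV2-GFP and 8.65 to 14.4 CPM with AAV206-GFP, Krt14 being at 0 throughout. Of 10 pigment epithelium markers 7 were tested and 1, Rgr, fell, with a median log2 fold change of -0.418 over the 7. That list summed to 13.5 to 43.6 and 16.9 to 24.8 CPM. Of 6 erythrocyte markers 5 were tested and 4 rose, and the list summed to 67.8 to 85.8 and 101 to 319 CPM. Of 10 microglia and macrophage markers 8 were tested and 2, the complement genes C1qa and C1qc, fell, with a median log2 fold change of -1.32 and sums of 26.5 to 232 and 21.9 to 30.7 CPM. The sum of 232 CPM was that of AAV2-GFP replicate 1. Group medians were 5.97 and 2.54 CPM for C1qa and 7.97 and 2.88 CPM for C1qc, and the groups of both genes overlapped. Lens-type crystallins were thus low in the group in which Optc and blood markers were high, although AAV206-GFP replicate 1, with the most Optc of all (8.83 CPM), was also the AAV206-GFP mouse with the most Cryaa.

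**Figure D4:**
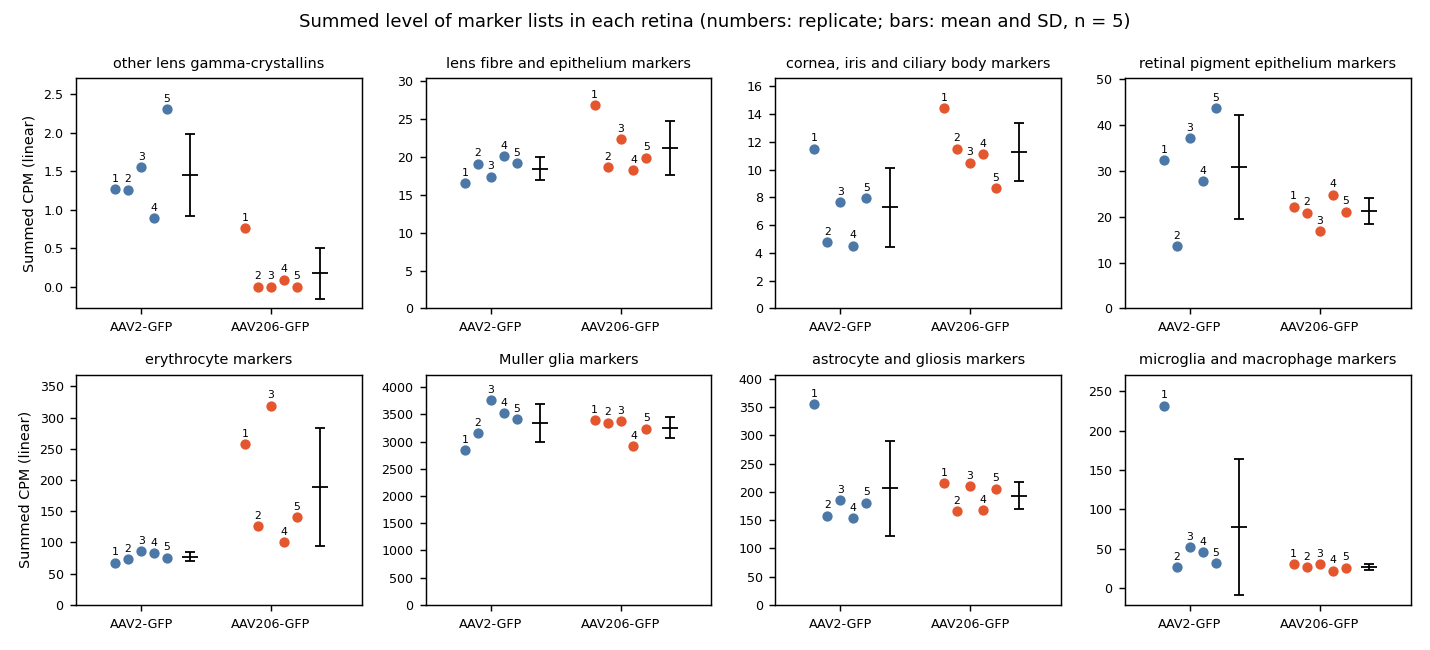
Summed level of 8 marker lists in each retina, in CPM on linear axes that differ between panels, with replicate numbers beside the points and the mean with its SD (n = 5) at the right of each group. The other lens γ-crystallins are at or near 0 in AAV206-GFP replicates 2 to 5, while the lens genes that are not crystallins overlap between the groups.

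Glial markers were set beside Cryab, which glia of the retina can express. Correlations of the pigment epithelium markers with Cryab were not computed. Their summed level was lowest in AAV2-GFP replicate 2 (13.5 CPM), which had the least Cryab of its group. In AAV206-GFP replicate 4, the mouse with the least Cryab, that sum was 24.8 CPM, the highest of its group. None of 8 tested Müller glia markers passed (edgeR), with 4 at an unadjusted p under 0.05, a level that 28% of all tested genes reached. Of these 4, Slc1a3, Kcnj10 and Vim were lower with AAV206-GFP, while Dkk3 was higher (edgeR log2 fold change 0.17). The 8 markers had a median log2 fold change of -0.17. Their summed level was 2850 to 3760 CPM with AAV2-GFP and 2920 to 3390 CPM with AAV206-GFP. None of 9 tested astrocyte and gliosis markers passed either, with 0 at an unadjusted p under 0.05, a median of -0.22 and summed levels of 154 to 355 and 166 to 216 CPM. AAV206-GFP replicate 4, the mouse with the least Cryab, had the lowest Müller glia sum of its group, but the lowest of all 10 was in AAV2-GFP replicate 1, which had 25 CPM of Cryab. Over the 10 libraries, with the mean of each group subtracted, the correlation with Cryab on the log2(CPM + 1) scale was 0.397 to 0.724 across the 8 Müller glia markers, the highest being Vim, an intermediate filament gene. Without AAV206-GFP replicate 4 it ran from -0.155 to 0.685, with Vim at 0.264 and Kcnj10 as the 1 below 0. The lens gene Lenep was at 0.789 with Cryab and at -0.765 without that mouse. The same measure with Cryaa ran from -0.50 to 0.442 across the Müller glia markers, and it was 0.646 for the lens gene Tmod1, or 0.242 without AAV206-GFP replicate 1.

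By the same measure, the genes outside the family most like Cryab among 14955 were Lgmn (r = 0.972), Commd9 (0.955), Slc25a20 (0.950), Tspan10 (0.950) and Pdyn (0.949). Without AAV206-GFP replicate 4 these were 0.886, 0.815, 0.897, 0.876 and 0.769. Lgmn, a lysosomal protease gene, was at 120 CPM in that mouse and at 146 to 154 CPM in the remaining AAV206-GFP mice. The genes most like Cryaa were Zfp280c (r = 0.965), Klf16 (0.946), Col4a2 (0.935), Enpp1 (0.918) and Inf2 (0.908), and without AAV206-GFP replicate 1 they were at 0.876, 0.826, 0.750, 0.891 and 0.638. No gene of the lens lists was among them, but of those lists only Lenep, Hsf4 and Tmod1 were tested and could have been. The members themselves were left out of this search, so the absence says little. These values describe 10 retinas that share their group structure and carry no test.

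Among the other genes listed as small heat shock proteins, Hspb1 was the 1 of 4 tested that passed, against 11.2% of all tested genes. Hspb1, which encodes a stress-induced chaperone, was at 5.79, 6.11, 8.74, 7.82 and 7.43 CPM with AAV2-GFP and at 2.94, 2.74, 3.97, 3.77 and 3.82 CPM with AAV206-GFP. The groups did not overlap, and Hspb1 fell by 1.06 on the log2 scale (standard error 0.18, edgeR adjusted p = 0.0017). Groups without overlap were seen for 9.78% of all tested genes, and Hspb1 carried decimals in 4 libraries. AAV206-GFP replicate 1 was low in Hspb1 along with its group, unlike in Cryaa, and replicate 4 was not the lowest, unlike in Cryab. Hspb6, Hspb8 and Hspb11 did not pass, at log2 values of -0.07, -0.10 and 0.20 (edgeR adjusted p = 0.453, 0.755 and 0.666), and the median of the 4 was -0.09. Hspb2, the head-to-head neighbour of Cryab, had 18 counts over all libraries.

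The enzyme crystallins, named for lens proteins of other species, and the genes with βγ domains outside the lens family are given next. None of the 4 enzyme crystallins passed (edgeR), with 2 at an unadjusted p under 0.05, a level that 28% of all tested genes reached. Crym, a thyroid hormone binding protein, was at 35.2 ± 7.26 and 29.4 ± 1.3 CPM (SD, n = 5; edgeR adjusted p = 0.148), and Cryzl1 at 51.3 ± 3.73 and 43.9 ± 4.57 CPM (SD, n = 5; edgeR adjusted p = 0.0804). Cryz and Cryl1 were at log2 values of 0.06 and 0.02 (edgeR adjusted p = 0.821 and 0.969). Crybg3 rose from 38.1 ± 1.68 to 49.7 ± 5.91 CPM (SD, n = 5; edgeR log2 fold change 0.38, adjusted p = 0.00745), although it carried decimals in all 10 libraries. Crybg1 did not pass (edgeR log2 fold change -0.07, adjusted p = 0.939), and Crybg2, at 0.172 and 0.103 CPM, was too low to be tested.

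Of 14 transcription factors known to act on crystallin promoters 12 were tested, and Six3 and Mafg passed as lower with AAV206-GFP. Over all tested genes 11.2% passed, 5.3% as lower. Six3, a homeobox factor of eye development, was at 114 ± 6.53 and 96.2 ± 6.89 CPM (SD, n = 5; edgeR log2 fold change -0.24, adjusted p = 0.0266). Mafg, a small MAF protein, was at 149 ± 11.2 and 126 ± 11.4 CPM (SD, n = 5; edgeR log2 fold change -0.24, adjusted p = 0.0436), and the groups of both genes overlapped. The remaining 10 did not pass, Pax6 and Prox1 being at log2 fold changes of 0.0083 and -0.0019. The large MAF genes Maf and Mafa had -0.29 and -0.40 (edgeR adjusted p = 0.0841 and 0.327). The median over the 12 was -0.16, against -0.0095 over all tested genes.

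All 10 members had whole counts in every library, so none carried the decimals that mark reads divided between genes. In GENCODE release M21, 273 exonic bases of Cryaa are shared with the antisense gene AC090881.2, which had 0 counts, and Cryab shares exonic bases with Hspb2 on the opposite strand. The exons of the other 8 members shared no bases with exons of other genes. Cryba1 lies within the span of Nufip2 on the opposite strand without sharing exonic bases. Nufip2 had 13056 counts in all and the counting strand is not given, and whether reads of Nufip2 added to Cryba1 was not tested.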

How the data were processed

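Retinal RNA libraries (paired 150-base reads, per the labels) came from 10 mice, and the authors deposited 1 table of estimated counts per gene. STAR 2.7.10b, RSEM 1.3.1 and mm10 are named in the submitters' processing notes, while the annotation, filters and counting strand are not given in the sources used here. Gene symbols, coordinates and merged exon lengths came from GENCODE M21, on the assembly behind mm10, and promoters from RefSeq (GRCm38.p6).

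Estimated counts were rounded to whole numbers. Genes kept by filterByExpr (15539) were tested with edgeR 4.0.16 in R 4.3.3 (TMM scaling, quasi-likelihood F test, Benjamini-Hochberg adjustment over all of them, threshold 0.05), with no covariate. CPM values other than the floor of 3 counts use TMM-scaled library sizes, and a positive log2 fold change means higher with AAV206-GFP. The standard error is the absolute log2 fold change over the square root of F. Members below the filter with at least 10 counts were compared by enumerating every relabelling of the mice (exact permutation, two-sided, unadjusted). Shares carry 95% Wilson intervals. The fit was also run on counts simulated from its own dispersions, which does not test how it handles a single outlying mouse. Libraries of a group differed beyond sampling noise (chi-square per degree of freedom 3.74 to 23.1). Alternatives were other scalings, filters, rounding, DESeq2 1.42.0, limma 3.58.1 (voom), a replicate block and leaving out libraries.

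Members and lists were chosen with earlier results of these data known. Named by rule were all members, tested genes of the related crystallin and lens lists, heat shock and regulator genes past the threshold, and the 5 genes most like Cryaa and Cryab. Other genes (Optc, Mgp, Rgr, Vim, Kcnj10, Slc1a3, Dkk3, C1qa, C1qc, Hspb2, Hspb6, Hspb8, Hspb11, Crybg2, Pax6, Prox1, Maf, Mafa and single lens genes) were named after their values were seen. The planned correlation over all libraries was replaced by one within the libraries high in Cryaa, a choice made after seeing the data. Some genes of the lists are not reported here by name.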

Additional observations from a re-analysis of the deposited data

Results flagged for a closer look

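Within each group of 5 mice, the levels of every member were searched for a single mouse far from the rest, meaning a gap to its nearest neighbour of more than 0.71 of the group's range. Of 20 sets of 5 values, 6 held such a mouse. The rule marks about 1 set in 20 only for independent, normally distributed values. Many values here are near 0 and the members share their mice, so no excess over chance can be read from the count. Crygn, a single count in 1 mouse and under the floor of 3 counts, cannot be judged in this way, and without it 5 of 18 sets held such a mouse. In AAV206-GFP replicate 1, Cryaa stood at 6.31 CPM against 0.0862 to 0.807 in the other 4 mice, Crybb2 at 2.52 CPM against 0 to 0.339, and Cryba1 at 0.841 CPM against 0 to 0.17. In AAV206-GFP replicate 4, Cryab stood at 10.4 CPM against 19.1 to 20.1. In AAV2-GFP replicate 5, Crygs stood at 3.08 CPM against 0.565 to 1.18. In AAV2-GFP replicate 1, Crygn stood at 0.0904 CPM, which is 1 count, with 0 in the other 4 mice. Of these 6 values 3 came from the same mouse, AAV206-GFP replicate 1.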

How the results depend on the processing

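The number of members past the threshold was 2 with TMM and with the other 3 scalings, truncated counts, a stricter filter and both limma-voom fits. It was 6 of 10 with no filter on low counts (6.42% of all genes tested), 0 of 4 with robust dispersions (11.5%, with 3 members at an unadjusted p under 0.05), 4 of 10 with DESeq2 (7.76%) and 4 of 7 (6.14%) without AAV2-GFP replicate 1 and AAV206-GFP replicates 1 and 4, an alternative chosen after seeing the data. AAV2-GFP replicate 5 was kept in that last alternative. Leaving out 1 library at a time gave 0 (without AAV2-GFP replicate 5, 8.44%) to 4 (without AAV206-GFP replicate 1, 8.81%) and 1 without AAV206-GFP replicate 3. Over all genes 1747 passed, 967 without those 3 libraries and 991 (without AAV2-GFP replicate 4) to 1912 (without AAV2-GFP replicate 1) with 1 left out. With the replicate block the count was 1085, with 2 members. Mice of the same number did not deviate together (r from -0.0518 to 0.0405). These values showed no pairing by number, but they carry no test and cannot exclude a batch shared by mice of the same number. The 9 members other than Crygn were lower with AAV206-GFP in every one of these fits that tested them. The cause of these shifts was not tested, although without a filter, or with a library left out, other genes are tested. Levels under 3 counts, as of several members in AAV206-GFP replicates 2 to 5, limit what the depth can show.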
